A study of Mus musculus with 4 samples.

Results

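The genes described here encode pleiotrophin (*Ptn*), midkine (*Mdk*), the receptors *Alk* and *Ptprz1* and the syndecans *Sdc1*, *Sdc2*, *Sdc3* and *Sdc4*, 8 of the 32285 genes measured. They were picked by symbol, because *Ptn* lay higher in the mutant libraries of both kinds of endocardial cell (EdC), so the comparison of genotypes in EdCs is given for all of them as a description without a test. Single cells of mouse hearts at E10.5 were profiled by droplet-based sequencing (10x Genomics), which counts each captured transcript once by a unique molecular identifier (UMI). The control libraries, 5 and 7, carried the floxed allele on both chromosomes (*Tie2fl/fl*), and the *Tie2-cko* (mutant) libraries, 6 and 8, combined it with Cre (*Nfatc1Cre;Tie2f/f*). Both genotypes thus shared the floxed *Tie2* alleles, and the mutants alone were labelled with the Cre, a knock-in at *Nfatc1*, whose promoter drives it in the endocardium. By the methods each genotype was represented by 2 hearts of 1 litter from strains of mixed background (129 with C57/BL6), so that p-values measure only the spread between these 4 libraries, and the whole cardiogenic region was dissected.

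Pleiotrophin and midkine are the only known members of a family of small secreted growth factors that bind heparin. They bind the heparan and chondroitin sulphate chains of cell surface proteoglycans, among them the syndecans, which carry such chains on a transmembrane core protein, and the receptor tyrosine phosphatase PTPRZ1. ALK is a receptor tyrosine kinase of the developing nervous system. Both growth factors are abundant in embryonic mesenchyme and epithelia and become scarce in most adult tissues. The endocardium is the inner lining of the heart. Its chamber part faces the trabeculae, and its cushion part covers the cushions from which the valves form and is a source of their mesenchymal cells (MCs).

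*Ptn* (ENSMUSG00000029838) lies on the minus strand of chromosome 6 at 36714929 to 36810220 in GRCm38, the assembly that mm10 names. *Mdk* (ENSMUSG00000027239) lies on the minus strand of chromosome 2 at 91929805 to 91932297, and *Sdc4* (ENSMUSG00000017009) on the same strand of that chromosome at 164424247 to 164443887. *Ptprz1* (ENSMUSG00000068748) lies on the plus strand of chromosome 6 at 22875502 to 23052916 and *Alk* (ENSMUSG00000055471) on the minus strand of chromosome 17 at 71868972 to 72604627. The other syndecans lie on plus strands, *Sdc1* (ENSMUSG00000020592) on chromosome 12 at 8771323 to 8793715, *Sdc2* (ENSMUSG00000022261) on chromosome 15 at 32920723 to 33034935 and *Sdc3* (ENSMUSG00000025743) on chromosome 4 at 130792537 to 130826319.

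The 209 bases before the annotated first exon of *Ptn* are shown because *Ptn* is the gene for which the group was chosen and because the transcription factor studied in these hearts, FOXO1, binds DNA through a core of the letters GTAAACA. The sequence was taken from RefSeq on the minus strand of chr6:36810221-36810429 (GRCm38.p6), and its capitals mark a match to the shorter letters AAACA.
*Ptn* upstream: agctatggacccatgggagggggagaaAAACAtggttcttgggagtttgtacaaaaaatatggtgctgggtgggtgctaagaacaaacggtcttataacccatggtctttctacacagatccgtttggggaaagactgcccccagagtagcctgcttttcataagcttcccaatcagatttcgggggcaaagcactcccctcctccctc
Both strands of the 300 bases around the start site of 6 of the 8 genes were searched (all except *Mdk* and *Sdc2*). None held GTAAACA, which occurs in 3.65% of all 32851 promoters of that length, and this says only that the letters are not in these windows. AAACA, a part of GTAAACA, occurs in 50.5% of them and was met in the windows of *Ptn* and *Alk*.

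After filtering, 10097 and 8449 cells were kept in the control libraries 5 and 7 and 5684 and 9189 cells in the *Tie2-cko* libraries 6 and 8, with a median of 14898 to 25740 UMIs per cell. Pairs of libraries shared 12 to 29 cell barcodes. Clusters named by marker genes gave 10 cell types or clusters with at least 20 cells in each library, among them 1559 chamber EdCs (373 and 592 in the control libraries, 135 and 459 in the *Tie2-cko* libraries) and 1271 cushion EdCs (257 and 443 against 126 and 445). *Tek*, the official symbol of *Tie2*, stood in chamber EdCs at 0.894 and 1.01 UMIs per 10000 in controls, against 0.128 and 0.152 in mutants (log2 difference -2.59 ± 0.20 SE, edgeR adjusted p = 0.0092). In cushion EdCs it stood at 0.879 and 1.65 against 0.361 and 0.306 (-2.01 ± 0.27, edgeR adjusted p = 0.074). Libraries 5 and 6 held 535 and 562 cells of foregut mesenchyme, while libraries 7 and 8 held 3 each.

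*Ptn* was most abundant in epicardial cells and in some unnamed clusters, and it differed widely between the cell types of the heart. A level here is the number of UMIs of a gene per 10000 UMIs of a cell, as the mean of all cells of the type in 1 library. In epicardial cells, the outer covering of the heart, the level was 14.4 and 14.2 in control libraries 5 and 7 against 14.7 and 16.5 in mutant libraries 6 and 8 (mean 14.9 ± 1.05 SD over the 4 libraries). An unnamed cluster led by *Prrx1*, *Col9a1* and *Rgs5* followed at 10.98 ± 2.42, with no overlap between its libraries and the epicardial ones. Of the marker lists it best matched that of second heart field and pharyngeal mesoderm, with 0.80 of the list present. Chamber EdCs came next at 2.14 ± 0.651, below that cluster in every library. Their range overlapped with that of MCs (1.87 ± 0.326), and the MCs overlapped with the epithelial cells (1.83 ± 0.724), so the order among these 3 is not settled by these libraries. Cardiomyocytes (CMs) held 0.551 ± 0.118, vascular endothelial cells 0.348 ± 0.275 and cushion EdCs 0.316 ± 0.0945, each overlapping with the next. Chamber EdCs therefore lay above cushion EdCs in each library, although both are endocardium, and the lowest chamber value (1.24, library 7) was above the highest cushion value (0.434, library 8).

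**Figure D1:**
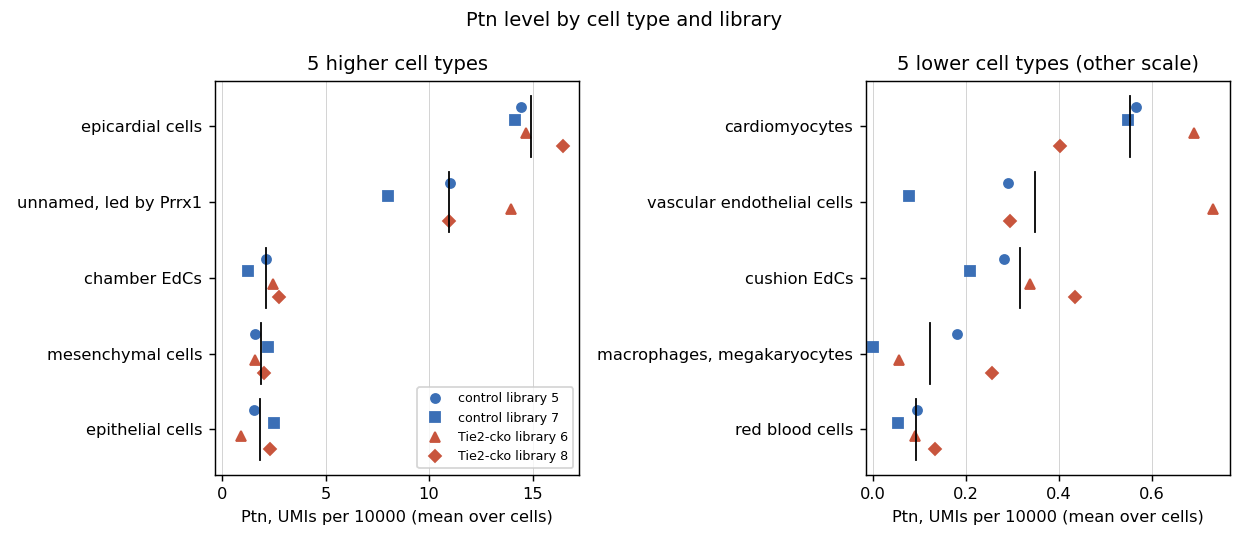
*Ptn* level in 10 cell types, in UMIs per 10000, mean per library (horizontal axis; the right panel has a smaller scale). Points are libraries, blue for control and red for *Tie2-cko*, and the black line is the mean over the 4 libraries; epicardial cells lie at 14.2 to 16.5 and both *Tie2-cko* libraries lie right of both control libraries in chamber and cushion EdCs.

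Clusters that were rich in the libraries with more surrounding tissue reached the highest levels. A cluster led by *Dkk2*, *Mab21l2* and *Ndnf* held 25.7 and 25.2 *Ptn* UMIs per 10000 in libraries 5 and 6, and a cluster led by *Lhx2*, *Shisa3* and *Hlx* held 19.5, 18.6 and 16.4 in libraries 5, 6 and 8. *Ptn*, although left out of the clustering, was among the 10 leading genes of both. Foregut mesenchyme held 5.88 and 6.95 in libraries 5 and 6. The other libraries had fewer than 20 of these cells and are not given. Within the heart muscle *Ptn* was uneven. A CM cluster led by *Shox2*, a gene of the venous pole and pacemaker region, held 2.03 and 1.49 in controls against 2.99 and 0.386 in mutants, and another led by *Rspo3* held 0.718 and 1.10 against 0.592 and 1.26. The genotypes overlapped in both clusters. In the 3 other CM clusters, led by *Myl2*, *Myh7* and *Tnni2*, the level stayed between 0.118 and 0.384 in every library.

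In chamber EdCs *Ptn* stood at 2.11 and 1.24 UMIs per 10000 in control libraries 5 and 7, against 2.48 and 2.73 in mutant libraries 6 and 8. Both mutant libraries lay above both control libraries, and the control libraries differed more from each other than the nearer mutant library differed from library 5. The log2 difference fitted to summed counts was 0.69 ± 0.25 (SE, n = 2 libraries per genotype). The ratio of mean levels, a separate measure in which each cell of a library weighs the same, was 1.55. Without control library 7 the log2 difference was 0.33, and without control library 5 it was 1.16, so its size rested on which control heart was used. These values chose the group of genes, so no p-value is attached. Both mutant libraries lay above both controls for 20% of all 11498 genes tested in chamber EdCs and below both for 13.7%. By edgeR at an adjusted p under 0.05, 1 gene of 11498 (0.0087%), *Tek*, was past the threshold. Of the 6 members measured, 0 were past it in this fit. With the pairs of libraries 5 with 6 and 7 with 8 as a block 2 were (*Ptn* and *Mdk*), and without the filter on low counts 1 was (*Ptn*). These counts come from the contrast that chose the genes and are given as a description.

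In cushion EdCs the level was lower by far but the order of the libraries was the same. *Ptn* stood at 0.283 and 0.209 UMIs per 10000 in control libraries 5 and 7 against 0.337 and 0.434 in mutant libraries 6 and 8, from 107, 109, 154 and 275 UMIs. The log2 difference, fitted to summed counts, was 0.86 ± 0.18 (SE). The ratio of mean levels, a separate measure in which each cell of a library weighs the same, was 1.57. Both mutant libraries lay above both controls for 18.4% of the 11329 genes tested and below both for 9.88%, and 4 genes (0.0353%), all of them haemoglobin genes, were past the edgeR threshold. Here too 0 of 6 members were past it in this fit, and 1 (*Ptn*) with the block of library pairs or without the filter, again as a description. In red blood cells, which serve as a background because these cells are not known as a source of pleiotrophin, *Ptn* stood at 0.0939 and 0.0543 in controls against 0.0901 and 0.134 in mutants. There the genotypes overlapped, but library 7 was lowest and library 8 highest as in both kinds of EdC, and the ratio of means was 1.51. On the scale of levels the difference between genotypes was 0.928 UMIs per 10000 in chamber EdCs, 0.139 in cushion EdCs and 0.0381 in red blood cells. Red blood cells held more UMIs per cell than EdCs in each library (medians 22799 to 60176 against 10989 to 27558). An equal number of free *Ptn* UMIs per cell would thus give them a lower level than EdCs. The part of free RNA in the EdC values was not tested.

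Cells with *Ptn* were counted after each cell had been thinned to 5500 UMIs, so that depth did not set the shares. Among chamber EdCs 34.8% and 26.0% of control cells and 36.8% and 41.0% of *Tie2-cko* cells held at least 1 *Ptn* UMI (libraries 5, 7, 6 and 8, from 353, 551, 125 and 427 cells). The exact 95% intervals, which cover counting error alone, were 29.9 to 40.1%, 22.3 to 29.8%, 28.4 to 45.9% and 36.3 to 45.8%. The intervals of the control libraries did not overlap, while the share of library 5 lay within the interval of library 6. Chamber EdCs with 3 or more *Ptn* UMIs made up 12.7% and 7.62% of control cells and 15.2% and 20.1% of mutant cells, and a chamber EdC that held any *Ptn* held 3.05 and 2.48 UMIs on average in controls and 4.11 and 3.70 in mutants. Among cushion EdCs the shares with any *Ptn* were 11.4% and 6.38% in controls and 12.9% and 14.95% in mutants, and at most 2.103% of cells held 3 or more UMIs. In red blood cells 4.87% and 2.79% of control cells and 3.93% and 6.36% of mutant cells held a *Ptn* UMI, with a median of 22799 to 60176 UMIs per cell before thinning against 10989 to 27558 in chamber EdCs and 11408 to 25929 in cushion EdCs. Shares in CMs ran from 11.5% to 13.0% and in epicardial cells from 97.2% to 99.3%. Before thinning, the shares were 49.9%, 40.2%, 59.3% and 54.5% in chamber EdCs, 25.7%, 14.0%, 35.7% and 25.6% in cushion EdCs and 20.05%, 8.07%, 19.8% and 18.9% in red blood cells (libraries 5, 7, 6 and 8).

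**Figure D2:**
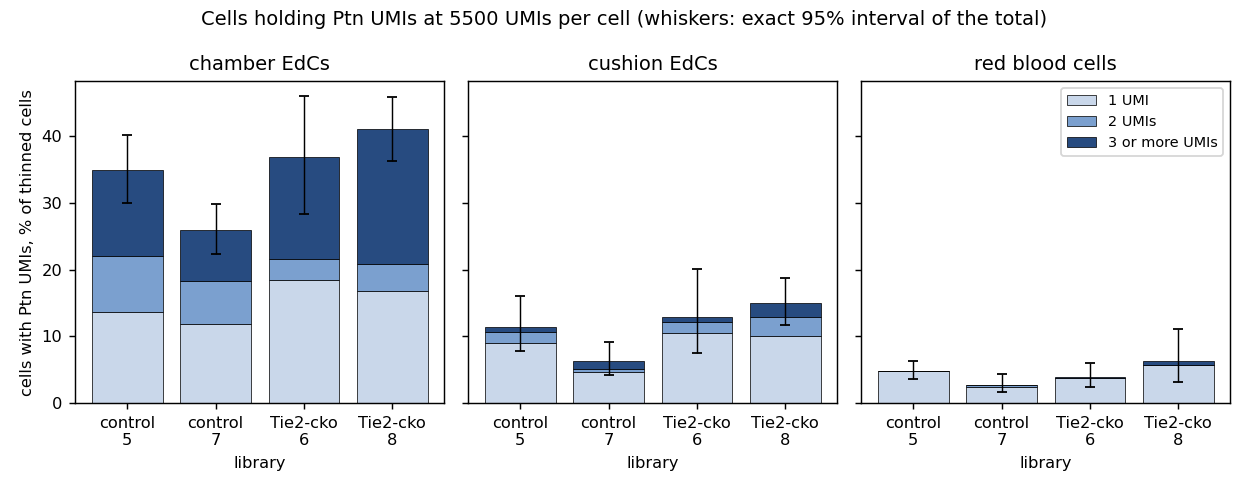
Share of cells (vertical axis, percent of cells thinned to 5500 UMIs) with 1, 2 or at least 3 *Ptn* UMIs, per library, in chamber EdCs, cushion EdCs and red blood cells; whiskers are the exact 95% interval of the total share. Chamber EdCs with 3 or more UMIs run from 7.62% in control library 7 to 20.1% in *Tie2-cko* library 8, and the red blood cells give the background.

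Chamber EdCs were divided once more, into 4 subclusters made without the 8 genes, after the levels had been seen. In the subcluster of dividing cells, led by *Top2a* and *Hist1h1b*, *Ptn* stood at 1.94 and 1.601 UMIs per 10000 in control libraries 5 and 7 against 4.83 and 3.44 in mutant libraries 6 and 8, from 111, 163, 31 and 76 cells. The cells of library 6 had a median of 54180 UMIs there, against 19535 to 23358 in the others. Over chamber EdCs as a whole 20% of genes were higher in both mutants, and the share within this subcluster was not counted. In the other subclusters the genotypes overlapped. They held 1.96 and 0.928 against 1.28 and 3.31 in the subcluster led by *Bc1* and *Hbb-bt*, 2.23 and 1.54 against 1.84 and 2.34 in that led by *Akap12* and *Col4a1*, and 2.62 and 1.15 against 2.03 and 2.06 in that led by *Pcp4* and *Cyp26b1*. The libraries were made up differently, the *Bc1* subcluster having 12.6% of the chamber EdCs of library 6 and 44.8% of those of library 7. With each subcluster given the same weight in every library, *Ptn* stood at 2.13 and 1.30 in controls and at 2.41 and 2.89 in mutants, a ratio of 1.55.

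**Figure D3:**
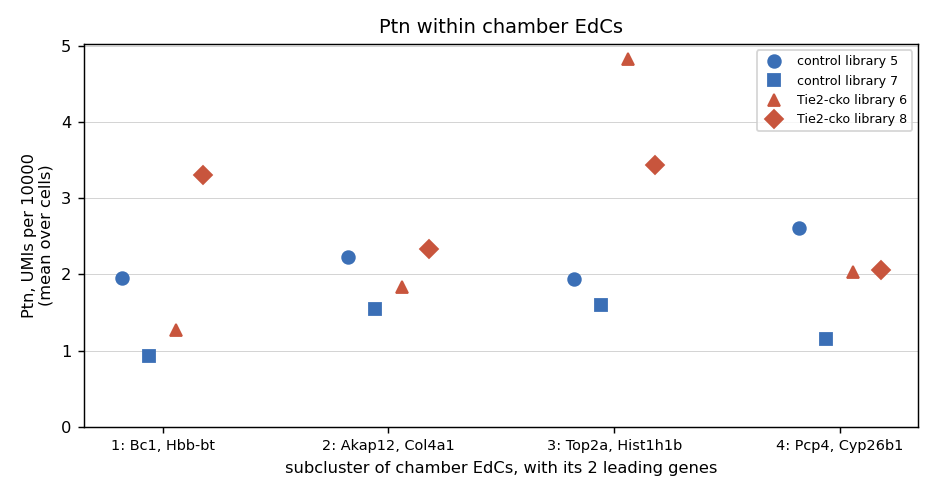
*Ptn* level (vertical axis, UMIs per 10000 averaged over cells) in 4 subclusters of chamber EdCs, each named by its leading genes; points are libraries, blue for control and red for *Tie2-cko*. In the subcluster led by *Top2a* both *Tie2-cko* libraries (4.83 and 3.44) lie above both controls, and in the others the genotypes overlap.

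Markers of other cells within the chamber EdCs were read beside these values. The 7 epicardial markers summed to 0.0763 and 0.154 UMIs per 10000 in controls and 0.125 and 0.137 in mutants, against 16.7 to 18.6 in the epicardial cells themselves. The 8 MC markers summed to 0.967 and 1.05 against 1.33 and 1.47, while in the MCs they summed to 18.5 to 20.3. Of these 8 markers, 5 were higher in both mutant libraries, against 20% of all genes tested in chamber EdCs. The red blood cell markers moved the other way, from 91.3 and 37.1 in controls to 14.2 and 13.4 in mutants, and none of the epicardial, MC or red blood cell markers was at 0. In cushion EdCs the epicardial list stood at 0.175 and 0.198 against 0.232 and 0.257. The MC list stood there at 3.66 and 3.79 against 4.36 and 4.19, with 4 of 8 markers higher in both mutant libraries (18.4% of all genes tested). The red blood cell list stood there at 65.4 and 37.5 against 13.5 and 12.2. The 3 mesothelial markers summed in chamber EdCs to 0.0564 and 0.0434 in controls against 0.113 and 0.0533 in mutants, which overlapped. In cushion EdCs they summed to 0.261 and 0.172 against 0.371 and 0.325, both mutants above both controls, with 1 of 3 markers higher in both. The foregut mesenchyme list overlapped between genotypes in both kinds of EdC. The part of these cells in the *Ptn* values was not tested.

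Outside the endocardium *Ptn* was tested across the whole table of each cell type. It did not pass in CMs (0.565 and 0.548 UMIs per 10000 in controls, 0.690 and 0.403 in mutants), with a log2 difference of 0.04 ± 0.18 and an edgeR adjusted p of 0.9999. In MCs it stood at 1.61 and 2.25 against 1.58 and 2.03 (log2 difference -0.06 ± 0.22, edgeR adjusted p = 0.99997). The epicardial difference was 0.08 ± 0.15 (edgeR adjusted p = 0.9999), smaller than the gap between the mutant libraries. Both mutant epicardial libraries lay above both controls for *Ptn*, as for 15% of the genes tested there, and below both for no member (9.87% of genes). In vascular endothelial cells *Ptn* stood at 0.290 and 0.0767 in controls and 0.732 and 0.294 in mutants, from 68, 2, 262 and 31 UMIs. The log2 difference of 1.38 ± 0.61 did not pass (edgeR adjusted p = 0.9999), it passed without the filter on low counts (adjusted p = 0.0057), and leaving out single libraries moved it between 0.30 and 3.82. Both mutants lay above both controls there for 16.4% of genes and below both for 10.9%.

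*Mdk* was spread far more evenly than *Ptn*. Among the 10 cell types its level was highest in epithelial cells (29.1 ± 2.08 UMIs per 10000, SD over 4 libraries) and the *Prrx1*-led cluster (25.8 ± 2.40), whose ranges overlapped. MCs followed at 17.5 ± 0.739, chamber EdCs at 15.7 ± 1.83 and cushion EdCs at 13.9 ± 0.696, each overlapping with the next, and then epicardial cells at 10.2 ± 0.303. CMs (7.46 ± 0.287) and vascular endothelial cells (7.12 ± 1.08) overlapped, and red blood cells stood at 1.87 ± 0.384. At 5500 UMIs per cell at least 98.8% of chamber EdCs and 98.4% of cushion EdCs of each library held an *Mdk* UMI, so that nearly every EdC with *Ptn* held *Mdk* too. Chamber EdCs with *Ptn* but no *Mdk* numbered 1, 0, 0 and 2 of 353, 551, 125 and 427 (libraries 5, 7, 6 and 8).

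In chamber EdCs *Mdk* lay on the other side from *Ptn*. It stood at 16.4 and 17.4 UMIs per 10000 in control libraries 5 and 7 against 13.1 and 16.0 in mutant libraries 6 and 8. Both mutants thus lay below both controls, library 8 by little, as was the case for 13.7% of all genes tested there. The log2 difference was -0.31 ± 0.15 (SE), a description as for *Ptn*. In cushion EdCs it stood at 14.5 and 13.9 against 13.0 and 14.4, which overlapped (-0.10 ± 0.14). In MCs the log2 difference was -0.12 ± 0.14, in CMs 0.04 ± 0.12, in epicardial cells -0.03 ± 0.14 and in vascular endothelial cells -0.39 ± 0.18, none past the threshold (edgeR adjusted p = 0.99997 in MCs and 0.9999 in the other cell types).

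**Figure D4:**
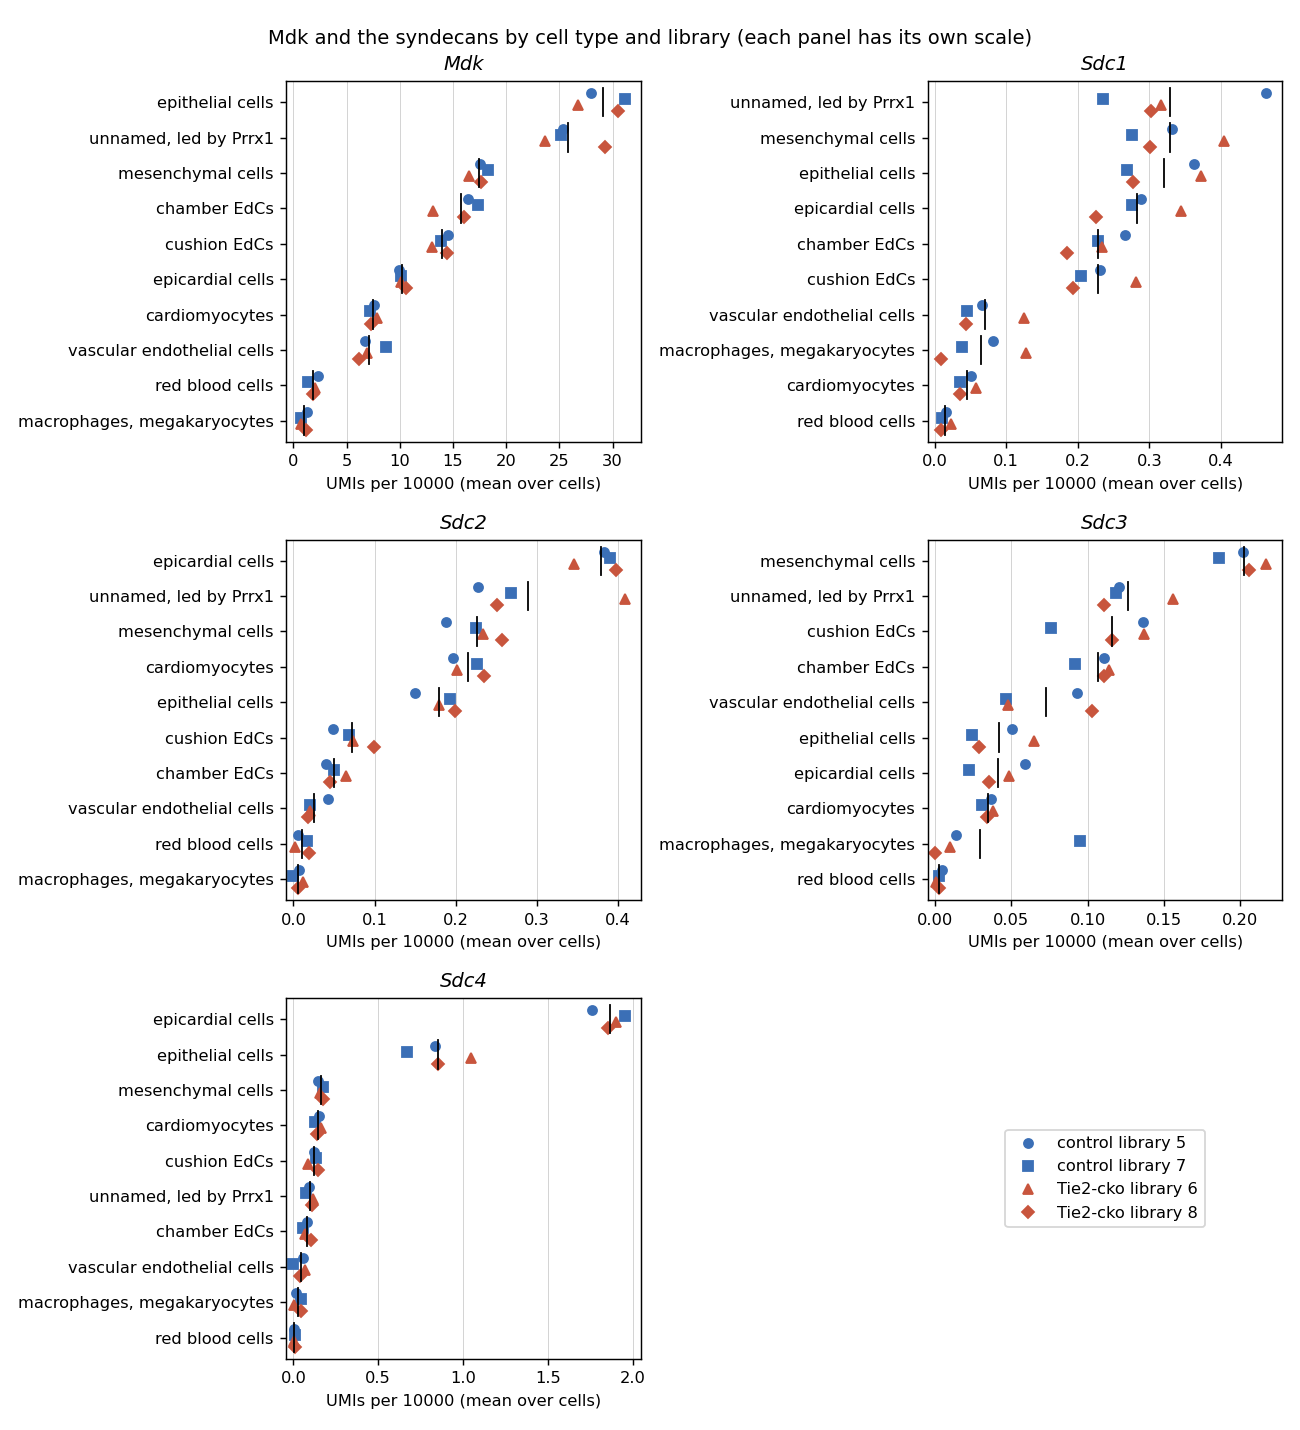
Levels of *Mdk* and the 4 syndecans (UMIs per 10000, mean per library, horizontal axis, a scale per panel) in 10 cell types; points are libraries, blue for control and red for *Tie2-cko*, and black lines the means over the 4 libraries. *Mdk* falls from 29.1 in epithelial cells, and *Sdc4* is highest in epicardial cells at 1.87.

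The receptors *Alk* and *Ptprz1* were scarce. In chamber EdCs 1 *Alk* UMI and 2 *Ptprz1* UMIs were counted over the 4 libraries, and 2 of each in cushion EdCs, too few to be tested. Among the 10 cell types *Alk* had its highest mean level in epicardial cells, 0.0093 UMIs per 10000 from 34 UMIs, and *Ptprz1* in the *Prrx1*-led cluster, 0.0233 from 75 UMIs. Neurons, of which libraries 7 and 8 held 14 and 19, held *Ptprz1* at 0.0972 in library 5 and 0.143 in library 6, from 16 and 26 UMIs. *Alk* stood there at 0.0371 and 0.0116, from 5 and 3 UMIs. In CMs, where 12573 cells gave 203 and 262 UMIs, both receptors could be tested. *Alk* had a log2 difference of 0.23 ± 0.27 and *Ptprz1* of -0.16 ± 0.28 (edgeR adjusted p = 0.9999 for both). *Ptprz1* lay below both controls in both mutant libraries of CMs, as 6.98% of all genes tested there did, and no member lay above both, as 13.6% did.

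The 4 syndecans each had their own distribution, compared here among the 10 cell types with at least 20 cells in each library. *Sdc4*, the syndecan of focal adhesions, was highest in epicardial cells (1.87 ± 0.0829 UMIs per 10000), then in epithelial cells (0.851 ± 0.154), with no overlap between these or with MCs (0.162 ± 0.0149) below. Chamber EdCs stood at 0.0780 ± 0.0184 and cushion EdCs at 0.122 ± 0.0262, and their ranges overlapped. *Sdc2*, a syndecan of mesenchymal cells, was also highest of these 10 in epicardial cells (0.379 ± 0.0232) and overlapped there with the *Prrx1*-led cluster (0.289 ± 0.0812). MCs (0.226 ± 0.0287), CMs (0.215 ± 0.0183) and epithelial cells (0.180 ± 0.0218) overlapped in turn, and cushion EdCs (0.0722 ± 0.0210) and chamber EdCs (0.0504 ± 0.0108) lay below all of these. In foregut mesenchyme, outside these 10, *Sdc2* stood at 0.418 and 0.551 in libraries 5 and 6. *Sdc3*, known mainly from neurons, was highest of the 10 in MCs (0.202 ± 0.0127) with no overlap with the *Prrx1*-led cluster at 0.126 ± 0.0202, and neurons, outside these 10, held 0.229 and 0.347 in libraries 5 and 6. *Sdc1*, known from epithelia and plasma cells, was highest of the 10 in the *Prrx1*-led cluster (0.329 ± 0.0963), MCs (0.328 ± 0.0553) and epithelial cells (0.320 ± 0.0548). Epicardial cells (0.283 ± 0.0486), chamber EdCs (0.228 ± 0.0336) and cushion EdCs (0.228 ± 0.0389) came after them, each type overlapping with the next. MCs (0.276 to 0.404) and epithelial cells (0.269 to 0.372) nevertheless lay above chamber EdCs (0.185 to 0.266) in every library. CMs held 0.0450 ± 0.0111.

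The syndecans of EdCs mostly overlapped between genotypes. In chamber EdCs *Sdc1* stood at 0.266 and 0.229 UMIs per 10000 in control libraries 5 and 7 against 0.233 and 0.185 in mutant libraries 6 and 8, with overlap (log2 difference -0.23 ± 0.17 SE). *Sdc2* stood at 0.0404 and 0.0506 against 0.0652 and 0.0453 (0.39 ± 0.28), *Sdc3* at 0.111 and 0.0917 against 0.114 and 0.111 (0.15 ± 0.21) and *Sdc4* at 0.0823 and 0.0588 against 0.0692 and 0.102 (0.28 ± 0.26). All 4 overlapped between genotypes. In cushion EdCs *Sdc2* stood at 0.0482 and 0.0682 in controls and 0.0733 and 0.0991 in mutants (0.30 ± 0.29). Both mutants lay above both controls, as was the case for 18.4% of all genes tested there. *Sdc1* (0.05 ± 0.19), *Sdc3* (0.20 ± 0.28) and *Sdc4* (-0.16 ± 0.24) overlapped in cushion EdCs. In each of these 8 comparisons, from 135 to 592 chamber and 126 to 445 cushion EdCs per library, the SE was at least 0.17.

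**Figure D5:**
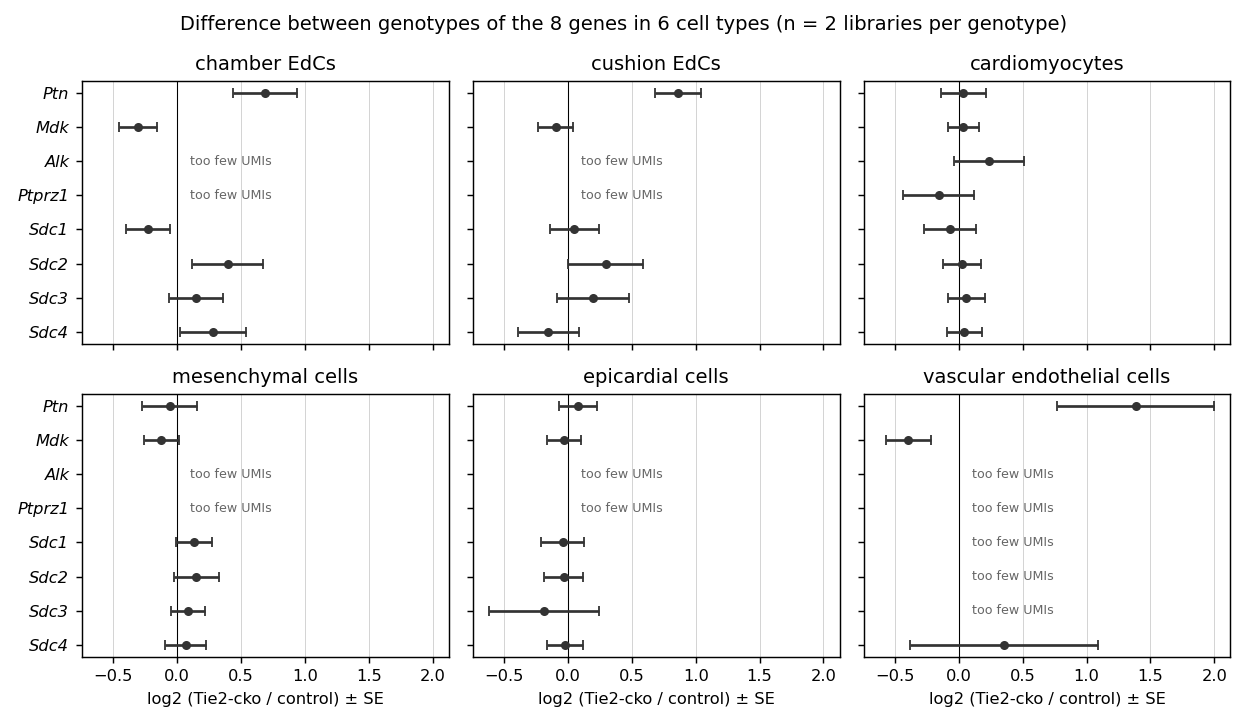
Log2 difference between *Tie2-cko* and control with its standard error (horizontal axis) for the 8 genes in 6 cell types, from summed UMI counts of 2 libraries per genotype; genes with too few UMIs to be fitted are marked. *Ptn* lies at 0.69 in chamber EdCs and 0.86 in cushion EdCs, *Mdk* at -0.31 and -0.10, and the members of CMs, MCs and epicardial cells lie between -0.18 and 0.23.

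Outside the endocardium none of the members measured passed the edgeR test: 0 of 8 in CMs, where 0 of 15619 genes passed (0.0%), 0 of 6 in MCs, where 0 of 12665 passed (0.0%), 0 of 6 in epicardial cells, where 5 of 11891 passed (0.042%), and 0 of 3 in vascular endothelial cells, where 0 of 8577 passed (0.0%). No member had an unadjusted p under 0.05 in these 4 cell types, against 60, 133, 126 and 91 of all genes, and DESeq2 called no member and 2, 7, 6 and 4 genes. *Sdc2* and *Sdc3* lay above both controls in both mutant libraries of MCs, *Sdc2* at 0.188 and 0.225 against 0.234 and 0.257 (log2 difference 0.15 ± 0.18) and *Sdc3* at 0.201 and 0.186 against 0.217 and 0.206 (0.09 ± 0.13), in a cell type where 16.2% of all genes did so and 8.07% lay below both. Among epicardial cells *Sdc4* differed by -0.02 ± 0.14, *Sdc2* by -0.03 ± 0.15 and *Sdc1* by -0.04 ± 0.17, and among CMs *Sdc2* by 0.02 ± 0.15 and *Sdc4* by 0.04 ± 0.14.

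Genes that work with these members were read from 6 lists of 52 genes in all. By edgeR as fitted above, without a block and with the filter on low counts, none of them passed in any of the 6 cell types, out of 39 tested in chamber EdCs, 39 in cushion EdCs, 46 in CMs, 45 in MCs, 44 in epicardial cells and 25 in vascular endothelial cells, and 6, 3, 0, 1, 0 and 0 of them had an unadjusted p under 0.05. Over all genes 816 of 11498 in chamber EdCs and 236 of 11329 in cushion EdCs had such a p. Without the filter edgeR called 4 of 51 in chamber EdCs (*Hs3st1*, *Hs6st2*, *Tiam1* and *Vcan*) among 163 of all 18240 genes. With the block of library pairs it called 6 of 39 in chamber EdCs (these 4, *Gpc3* and *Itgb1*) among 844 genes and 3 of 39 in cushion EdCs (*Gpc3*, *Nrp1* and *Sulf1*) among 101. DESeq2 called 1, *Vcan* in chamber EdCs, among 27 of 10460 genes there, and none in the other cell types. *Vcan*, a chondroitin sulphate proteoglycan of the cardiac jelly that binds midkine, was singled out after its values were seen and stood there at 0.607 and 0.587 UMIs per 10000 in controls and 0.876 and 1.28 in mutants (log2 difference 0.92 ± 0.20 SE, edgeR adjusted p = 0.28). The other receptors and binding partners had a median log2 difference of 0.16 over 10 genes in chamber EdCs and 0.12 over 10 in cushion EdCs, against 0.0032 and 0.0016 over all genes tested. The most abundant in chamber EdCs were *Ncl*, a nucleolar protein that also binds both growth factors at the cell surface, at 10.7 and 9.64 against 10.3 and 9.12, *Itgb1*, an integrin chain, at 3.26 and 3.05 against 4.51 and 3.63, and *Nrp1*, a co-receptor, at 1.24 and 0.933 against 1.403 and 1.06. In cushion EdCs they were *Ncl* (8.72 and 8.86 against 9.43 and 7.67), *Vcan* (7.80 and 6.56 against 8.84 and 7.65) and *Itgb1* (5.10 and 5.58 against 6.18 and 5.44). The ALK ligands *Alkal1* and *Alkal2* were not tested, with no *Alkal1* UMI in EdCs and 2 and 1 UMIs of *Alkal2* in chamber and cushion EdCs.

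The glypicans are the other family of membrane heparan sulphate proteoglycans. All 4 measured in chamber EdCs and all 5 in cushion EdCs had a positive difference. The median log2 difference was 0.36 and 0.51, against 0.0032 and 0.0016 over all genes tested. None of these glypicans passed in the fit without a block, and the share of all genes with a positive difference was not counted. *Gpc3* was the most abundant of them in both, at 0.263 and 0.224 UMIs per 10000 in controls and 0.354 and 0.443 in mutants of chamber EdCs (0.63 ± 0.18) and at 0.283 and 0.402 against 0.388 and 0.552 in cushion EdCs (0.51 ± 0.20), where the genotypes overlapped. *Gpc2* (0.23 ± 0.35) and *Gpc6* (0.49 ± 0.29) followed in chamber EdCs, and *Gpc1* (0.40 ± 0.21) and *Gpc2* (0.34 ± 0.27) in cushion EdCs. In CMs, MCs and epicardial cells the glypican medians were 0.03, 0.03 and 0.08 over 5 genes each, and in vascular endothelial cells the 2 measured were negative with a median of -0.55. The secreted heparan sulphate proteoglycans *Col18a1* (0.03 ± 0.16 in chamber and -0.01 ± 0.16 in cushion EdCs), *Hspg2* (-0.01 ± 0.19 and -0.04 ± 0.18) and *Agrn* (0.07 ± 0.19 and 0.08 ± 0.17), all of basement membranes, differed by less than their errors.

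Enzymes that build and modify heparan sulphate, the chain that both growth factors bind, had a median log2 difference of 0.06 over 18 genes in chamber EdCs and 0.04 over 17 in cushion EdCs. The most abundant in chamber EdCs were *B3gat3*, which completes the linkage of the chain to its protein (-0.29 ± 0.15), *Hs2st1*, a 2-O-sulphotransferase (-0.13 ± 0.16), and *Ext1*, a chain polymerase (-0.17 ± 0.15). *Hs6st2* and *Hs3st1*, less abundant sulphotransferases, were singled out from their list after their values were seen. They lay higher in both mutants of chamber EdCs, as 20% of all genes tested there did. The 6-O-sulphotransferase *Hs6st2* stood at 0.117 and 0.0708 UMIs per 10000 in controls against 0.190 and 0.201 in mutants (1.13 ± 0.18, edgeR adjusted p = 0.18), and the 3-O-sulphotransferase *Hs3st1* at 0.0677 and 0.0791 against 0.128 and 0.303 (1.39 ± 0.39, edgeR adjusted p = 0.45). In cushion EdCs their differences were -0.03 ± 0.24 and 0.55 ± 0.28. The most abundant in cushion EdCs were *Sulf1*, a sulphatase that trims the chain (-0.38 ± 0.20), *B3gat3* (-0.13 ± 0.14) and *Ext1* (-0.14 ± 0.14). In chamber EdCs *Hs3st1*, like *Vcan*, was among the 10 leading genes of the *Pcp4* subcluster, whose share was 25.1% in library 8 and 10.2% to 13.3% in the others. The part of this make-up in the *Hs3st1* difference was not tested. The partners of the syndecan tails had a median of 0.16 in chamber and 0.12 in cushion EdCs over 5 genes each. *Gipc1* (-0.23 ± 0.49 and -0.11 ± 0.43) followed the pairs of libraries and not the genotype, at 1.01 and 0.877 in libraries 5 and 6 of the chamber EdCs and 0.387 and 0.339 in libraries 7 and 8, *Sdcbp* (syntenin) differed by 0.16 ± 0.19 and 0.12 ± 0.17, and *Tiam1*, an activator of RAC1, by 1.00 ± 0.22 (edgeR adjusted p = 0.27) and 0.39 ± 0.16 (edgeR adjusted p = 0.9998).

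The genes whose level followed *Ptn* most closely over 40 sums, of 10 cell types in 4 libraries, were *Col1a2*, a chain of type I collagen (Pearson r = 0.93 of the log-transformed normalized counts), *Bicc1* (0.91), *Bex2* (0.88), *Dact1* (0.87) and *Mpp5* (0.86). For *Mdk* they were *Zfp618* (0.96), *Ctxn1* (0.95) and *Sesn3* (0.95). *Sdc1* was followed by *Faf2* (0.94), *Tbc1d10a* (0.94) and *Foxp4* (0.94), *Sdc2* by *Epb41l3* (0.95), *Dzip1l* (0.94) and *Ldhb* (0.93), *Sdc3* by *Plscr3* (0.90), *Tmem134* (0.89) and *Lhfpl2* (0.88), and *Sdc4* by *Mgst1* (0.90), *Epb41l5* (0.89) and *Rnd3* (0.88). The sums of a library share its depth and free RNA, so these are descriptions of a pattern across cell types.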

How the data were processed

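The authors made UMI counts of each gene in each barcode with Cell Ranger (6.1.2 in the file header, while the methods name another version; mm10 by the submitters' processing notes) and deposited these counts unnormalized. The smallest barcode of a library had 500 to 504 UMIs, and the 4 libraries held 169361996 to 259775540 UMIs. The 8 genes, the lists of related genes and the tests were chosen with earlier results of these data known.

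Barcodes with at least 500 genes, 1000 UMIs and at most 10% mitochondrial UMIs were kept, and the highest Scrublet scores (scanpy 1.11.5) were removed at 0.8% per 1000 barcodes. Seurat 5.3.0 clustered the cells on 2000 variable genes, of which 15 discussed here were left out (30 components, 20 neighbours, resolution 0.8), and 27 clusters were named by fixed marker lists. A marker counted as present at 0.25 of its highest cluster level, and clusters with fewer than 3 such markers, or with 0.5 or less of a list, got no name. A cluster matching the MC list got no name where *Postn* was not present, which kept the *Dkk2*-led cluster (0.75 of that list) out of the MCs. A cluster matching the second heart field and pharyngeal mesoderm list got no name where its 10 leading genes held none of that list. This left the *Prrx1*-led cluster (0.80 of that list) unnamed. Clusters with under 0.333 of the median UMIs or few markers stayed unnamed, rules set after the clusters were seen.

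For tests, the counts of all cells of a type in a library were added up and fitted with edgeR 4.0.16 (TMM, filterByExpr, quasi-likelihood test, Benjamini-Hochberg over all genes of a cell type, threshold 0.05). This compares 2 libraries with 2. The SE is the absolute log2 difference over the square root of F. Alternatives used DESeq2 1.42.0, other size factors, no filter, stricter cells, more doublets removed, resolution 1.2, a block of library pairs and each library left out. The scripts were tested on simulated data. Intervals of shares are exact (Clopper-Pearson) and cover counting error only, and the limit for 0 cells is 3 counts of the total.

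Genes named are the 8 members, *Tek*, the 3 most abundant genes of each list in EdCs (mean of control libraries) and any gene of the lists past the threshold, the 5 genes most like *Ptn* and 3 most like *Mdk* and each syndecan (mean of at least 10 CPM), and cell type markers. Genes that lead clusters, and *Vcan*, *Hs6st2* and *Hs3st1* in chamber EdCs, were named after their values were seen. Positions are from GENCODE on GRCm38 and promoters from RefSeq.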

Additional observations from a re-analysis of the deposited data

How the results depend on the processing

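Both mutant libraries lay above both controls in the values that chose the genes, so the sign given next is a description. The log2 difference of *Ptn* was positive under all 12 alternatives in chamber EdCs and all 11 in cushion EdCs. Leaving out single libraries moved it between 0.33 (without control library 7) and 1.16 (without control library 5) in chamber EdCs and between 0.71 and 1.02 in cushion EdCs. The other alternatives gave 0.65 to 0.74 in chamber EdCs, among them the addition of a cluster of few UMIs, chosen after seeing the data (0.71), and 0.67 to 1.06 in cushion EdCs, 1.06 at resolution 1.2. Of the 364 values of the 33 other member differences, those in EdCs judged by their size and not by the threshold, 356 stayed within the spread between libraries or on their side of the threshold, 7 moved by more, all of them in EdCs with a library left out, and *Ptn* in vascular endothelial cells passed without the filter on low counts, which made the members past the threshold there 1 in place of 0. The unthinned share of cells with *Ptn* was 50.9% in place of 34.6% in chamber EdCs and 25.3% in place of 11.4% in cushion EdCs, means over libraries. By Spearman correlation 2 of the 5 genes most like *Ptn* stayed among the first 5.

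The number of genes past the threshold depended on the setting, and the cause was not tested. In chamber EdCs it was 1, with DESeq2 27, without the filter on low counts 163, with the block of library pairs 844, with more doublets removed 4 and with a library left out 23 to 66. In cushion EdCs it was 4, with DESeq2 9, without the filter 34, with the block 101, with stricter cells 8 and with a library left out 11 to 50. In CMs it was 0, with DESeq2 2, with the block 175 and with a library left out 0 to 6. In MCs it was 0, with DESeq2 7, without the filter 26, with the block 96 and with a library left out 0 to 18. In epicardial cells it was 5, without the filter 15, with the block 66, with more doublets removed 0 and with a library left out 6 to 14. In vascular endothelial cells it was 0, with DESeq2 4, without the filter 27, with the block 6 and with a library left out 0 to 27. With a library left out, the lone library of its genotype is assumed to vary like the other pair. The labels give the genotypes no shared replicate number, so the pairs of the block (5 with 6, 7 with 8), chosen with earlier results known, are not a pairing by design. The block and the missing filter each put *Ptn* past the threshold in chamber and cushion EdCs, and the block also *Mdk* in chamber EdCs. This contrast chose the genes, so these crossings are a description and not a test.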
